A study of Drosophila melanogaster with 2 samples.

Results

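The genes described here encode the proteins of the mitochondrial ribosome of Drosophila melanogaster. They were found by name, as protein-coding genes of the Ensembl annotation whose symbol starts with mRpL (large subunit) or mRpS (small subunit), a rule that reads no measured value. The rule found 73 of 13945 protein-coding genes, 47 of the large and 26 of the small subunit. The measurement was chromatin immunoprecipitation and sequencing (ChIP-seq) of Daughterless, the product of the gene da, in whole embryos 0 to 24 h old of both sexes. The embryos came from a transgenic line, da-GFP, in which da is fused at its C-terminal end to green fluorescent protein (GFP), and an anti-GFP antibody was used on chromatin sonicated to 200 to 800 bp. There was 1 group of 2 biological replicates, numbered 2 and 3, so no condition could be compared with another. Whole embryos mix tissues and ages, so a signal is an average over cells that may or may not have the protein on a gene.

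Mitochondrial ribosomes translate the few proteins encoded by mitochondrial DNA, which are subunits of the respiratory chain and the ATP synthase. Their RNA is mitochondrial, but all their proteins are made in the cytosol from nuclear genes and imported. Some of these proteins have counterparts in the bacterial ribosome and others are particular to mitochondria. Daughterless is a basic helix-loop-helix protein that pairs with tissue-specific proteins of its family, and such dimers bind E-boxes, hexamers of the form CANNTG. Many fly genes lie head to head, with their transcription start sites (TSSs) close together and transcription running apart, so that 1 stretch of DNA serves as promoter of both. A peak there lies at both genes and cannot be assigned to either from its position alone.

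A feature that many of these promoters shared was the E-box CAGCTG, and 10 examples are shown because the promoter comparison below turns on it. Each line gives 30 bases of the gene's own strand from the Release 6 assembly, which is also that of dm6, with CAGCTG in capitals. The hexamer is its own reverse complement, so it reads the same on either strand. The first 8 are from genes with a Daughterless peak and the last 2, mRpL11 and mRpL35, from genes without one. They come from the genes named one by one below, and of all 40 genes with CAGCTG in the promoter 29 had no peak.
mRpL23 (chr3L:2373715-2373744, minus strand): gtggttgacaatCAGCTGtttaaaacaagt
mRpL13 (chr2L:18859193-18859222, minus strand): cacactgtctgcCAGCTGagaaattatttt
mRpL24 (chr2L:4945324-4945353, minus strand): ttcagttctcaaCAGCTGattgcaagccgc
mRpL21 (chr3L:19255067-19255096, minus strand): cgcatgctaacaCAGCTGttcgaaaacgcg
mRpS2 (chr2L:4850413-4850442, minus strand): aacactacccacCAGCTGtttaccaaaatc
mRpL51 (chr2L:8517590-8517619, minus strand): tctgactgcaatCAGCTGatgaatgtcgat
mRpL47 (chr3R:9515873-9515902, minus strand): ttgttattgcttCAGCTGttttgttcggtc
mRpL32 (chr3R:31252844-31252873, plus strand): atatcgatagcaCAGCTGtttcctcttgcg
mRpL11 (chr3R:14511821-14511850, plus strand): cagcaataccatCAGCTGttgctgcttctt
mRpL35 (chr3R:22023510-22023539, plus strand): gtgaatggcacaCAGCTGactgttacgcga

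Windows around 3 of the peak summits follow for comparison. They hold 50 bases either side of a summit, read on the plus strand, and are shown because they belong to the strongest of the peaks printed here, at mRpS10 and mRpS23, and to a promoter of low GC content at mRpL24. Capitals mark any CANNTG, and none of the 3 windows holds CAGCTG.
mRpS10 (chr3R:15229470-15229570, plus strand): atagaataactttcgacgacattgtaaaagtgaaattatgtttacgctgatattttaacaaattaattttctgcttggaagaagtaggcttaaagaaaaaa
mRpS23 (chr2L:13835396-13835496, plus strand): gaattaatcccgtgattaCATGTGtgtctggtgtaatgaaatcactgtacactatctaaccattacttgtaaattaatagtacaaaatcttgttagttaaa
mRpL24 (chr2L:4945442-4945542, plus strand): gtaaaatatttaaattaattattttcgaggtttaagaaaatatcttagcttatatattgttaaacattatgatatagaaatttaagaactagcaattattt

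Peaks were lists of regions, each with a signal, the value the authors' caller gave it with a control in use, on a scale that is not stated. The thresholded list holds 1941 regions, which were also the 1941 of highest signal among the 30000 candidate regions called on the pooled reads. Its signals run from 64.2 to 877. Each replicate has its own list of 30000 candidate regions, peaks and background together. A pooled signal is close to the sum of the replicates' values, so pooled and single values are on different scales. Read depth is not in these lists and is unknown. In its place, 3568 regions of replicate 2 and 2964 of replicate 3 had a q of 0.01 or less. Genes with a thresholded summit inside the span, or at most 1000 bp from either end, are called genes with a peak.

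Daughterless peaks lay at 16 of the 73 mitochondrial ribosomal protein genes (21.9%, 95% Wilson interval 14.0 to 32.7). Over all protein-coding genes the share was 16.1%, inside that interval, so by this count the group was not set apart. Intervals here cover counting error only. A summit lay within 500 bp of an own TSS in 14 of the 73 (19.2%, 11.8 to 29.7), against 10.3% of all genes, which is below that interval. Most of these genes start head to head with another, and among head-to-head genes the counts were 13 of 53 (24.5%, 14.9 to 37.6) and 21.4% of all genes of that layout. Their spans are short, with a median of 909 bp against 2166 bp for all genes, and most of the peaks lay near gene starts. The 16 genes had 18 distinct summits, because mRpL34 and mRpS7 had 2 each. No summit lay within reach of 2 of the genes.

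The peaks ranged from among the strongest of the data set to close to its threshold. Of the 18 summits, 4 were in the strongest 100 of the whole list, while the median pooled signal of the 18 was 84.4 against 88.2 over all thresholded peaks, and 8 were above that overall median. Of the 18, 16 had the −log10 q ceiling of 3.54, so only signal orders them.

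**Figure D1:**
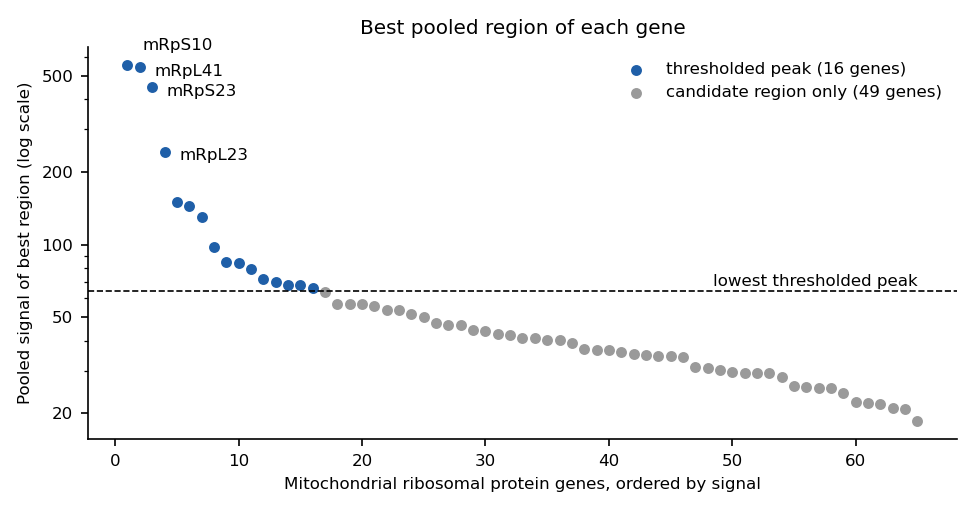
Pooled signal (log scale) of the best region within 1000 bp of each gene, with the genes in order of signal and the lowest thresholded signal of 64.2 as a dashed line. The 16 genes with a peak fall steeply from 555 at mRpS10 to 66.3 at mRpL52, and the 49 with a candidate region alone continue without a gap from 63.8 to 18.5; the 8 genes with no region are not drawn.

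The strongest peak was at mRpS10, which encodes a small-subunit protein with a bacterial counterpart. Its region was on 3R from 15229369 to 15229684, with a signal of 279 in replicate 2, 278 in replicate 3 and 555 in the pooled list, rank 8 of 1941. The replicates were almost equal there. The summit, at 15229520, lay 145 bp upstream of mRpS10 and 112 bp from Art3, an arginine methyltransferase gene whose TSS is 257 bp away on the other strand. The summit thus fell between the start sites, a little nearer to Art3. The window printed above for this summit holds no CANNTG.

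mRpL41, a large-subunit protein gene particular to mitochondria, had the next signal. It was 250.3 in replicate 2, 294 in replicate 3 and 541 in the pooled list, rank 9, with the summit on 2R at 15217751. The summit was 134 bp upstream of the TSS, and no other protein-coding gene starts within 500 bp. Of the 16 genes with a peak it was the only one with a promoter to itself.

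mRpS23, of the small subunit, followed with 197 in replicate 2, 251 in replicate 3 and 448 in the pooled list, rank 17. Its summit on 2L at 13835446 was 374 bp upstream of mRpS23 and 118 bp from CenG1A, a GTPase-activating protein gene head to head with it at a gap of 492 bp. The peak lay much closer to the neighbour. mRpL23, a large-subunit gene, had 129 in replicate 2, 111 in replicate 3 and 242 in the pooled list, rank 78. Its summit on 3L at 2373620 was inside the 5′ untranslated region of mRpL23, 58 bp past the nearest of its 3 TSSs. The summit was 108 bp from CG9004, on the mRpL23 side of the 24-bp gap between that gene and the outermost TSS of mRpL23. For these 4 genes the replicates were in the same range, and the lowest single value, 111, was above the highest value that any other of the 16 genes had in either replicate.

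The next 3 genes had peaks between 130 and 149. mRpL53 had 50.4 in replicate 2 and 96.1 in replicate 3, 149 pooled, at 2R 13954129. That summit was 66 bp upstream of a TSS that mRpL53 shares with CG33155, within an intron of AGO1, the Argonaute gene of the microRNA pathway, whose own nearest TSS lies head to head at 170 bp. The replicates differed at mRpL53 by 0.93 on the log2 scale, replicate 3 being higher. mRpL34 had 71.8 and 68.9 in replicates 2 and 3, 144 pooled, with the summit 233 bp upstream and 151 bp from Dg, the dystroglycan gene. A second summit 202 bp away and 31 bp upstream of mRpL34 had 37.2 and 32.5, 66.3 pooled, and its region overlaps the first. Dg starts head to head at 384 bp. mRpL13 had 71.8 and 58.4, 129.7 pooled, but that summit was 195 bp beyond the 3′ end of the gene, in an intron of CG10602, whose TSS is shared with mRpL13 on the same strand.

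mRpS7 has Daughterless peaks on both sides, and the gene beyond its 3′ end is da itself. The stronger, with 39.9 in replicate 2, 55.2 in replicate 3 and 97.2 in the pooled list, had its summit 352 bp beyond the 3′ end of mRpS7 and within 200 bp of the TSS of da, so by position it is a peak of the da promoter. The embryos carry added copies of da as the tagged transgene, and the part of those copies in this signal was not tested. The other summit, with 41.0 and 36.7 in the replicates and 77.5 pooled, lay upstream of mRpS7 by 268 bp. It was 132 bp from Cdk1, the kinase gene that drives entry into mitosis, which starts head to head at 400 bp.

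mRpL27 is a further case in which the peak belonged by position to another gene. Its summit had 32.2 in replicate 2, 36.8 in replicate 3 and 68.0 in the pooled list. It was 263 bp beyond the 3′ end of mRpL27, in the 5′ untranslated region of RpL27A, a cytosolic ribosomal protein gene, 12 bp from that gene's TSS. At its own start mRpL27 had no thresholded summit.

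The other genes with a peak had pooled signals from 66.3 to 84.8, and all had the summit at a head-to-head start. mRpL24 had 53.9 in replicate 2 and 23.7 in replicate 3, 84.8 pooled, 131 bp upstream and 87 bp from betaggt-I, which encodes a subunit of a prenyltransferase. It had the widest gap between replicates of the 18 summits, −1.19 on the log2 scale for replicate 3 minus replicate 2. mRpL21 had 41.3 and 41.0, 84.0 pooled, 37 bp from the start of rept, which encodes the ATPase reptin. mRpS2 had 43.2 and 37.3, 79.3 pooled, 6 bp from the start of Mon1, an endosomal trafficking gene.

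mRpL51 had 43.8 in replicate 2 and 27.0 in replicate 3, 72.3 pooled, with its summit 1 bp past its own TSS and Uba4, a gene for a ubiquitin-activating-type enzyme, starting 31 bp away. mRpL47 had 35.5 and 32.7, 69.7 pooled, 85 bp upstream and 14 bp from the histone demethylase gene Kdm3 and the overlapping CG8176. mRpL32 had 28.5 and 39.3, 67.9 pooled, 142 bp upstream and 122 bp from qless, which encodes an enzyme of coenzyme Q synthesis. mRpL52 had 26.8 and 39.2, 66.3 pooled, 6 bp upstream of its own TSS and with CG12107 starting at 50 bp. Both mRpL52 and the second summit of mRpL34 were just inside the threshold of 64.2.

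**Figure D2:**
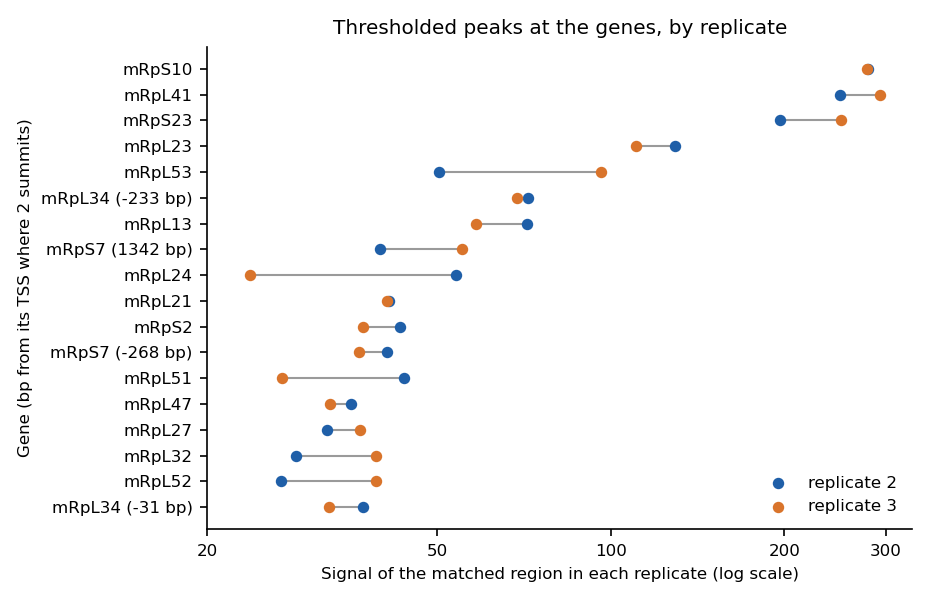
Signal of the region matched to each of the 18 thresholded summits in replicate 2 and in replicate 3 (log scale), in order of pooled signal, with the distance from the TSS given where a gene has 2 summits. The 4 strongest peaks lie above 100 in both replicates, and mRpL53 and mRpL24 show the widest gaps, in opposite directions.

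Over the 18 summits neither replicate was higher as a whole. The signal was higher in replicate 3 at 7 and in replicate 2 at 11, and the log2 difference of replicate 3 minus replicate 2 had a median of −0.03 (SD 0.48, n = 18). Over the 1928 thresholded peaks matched in both replicates that median was 0.17 (SD 0.57). The replicates' summits lay a median of 6.5 bp, and at most 102 bp, from the pooled summit. When each replicate was read alone, through its own 1941 highest regions, 18 of the 73 genes had a peak in replicate 2 (16.0% of all genes) and 15 in replicate 3 (16.0% of all genes). Both replicates had one at 11 of the 73, against 11.6% of all genes. These 11 were all among the 16; mRpL24, mRpL51 and mRpL47 reached the highest regions of replicate 2 alone, and mRpL32 and mRpL52 those of replicate 3 alone. The 5 genes in the highest regions of 1 replicate alone were thus among the 8 of lowest signal. Each also had a candidate region at its summit in the other replicate, ranked below the 1941 highest.

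Genes just under the threshold formed a continuous series with those above it. mRpS26 had a best region of 26.9 in replicate 2, 37.3 in replicate 3 and 63.8 in the pooled list, rank 1970, 321 bp upstream of its TSS. mRpL4 had 30.2 and 26.0, 56.9 pooled, 112 bp upstream of a promoter it shares with no other gene. mRpL11 had 36.8 and 26.6, 56.9 pooled, and starts 126 bp from HtrA2, a mitochondrial protease gene. mRpL35 had 32.1 and 22.4, 56.8 pooled, and starts 192 bp from Mitofilin, a gene for a protein that shapes the inner membrane of mitochondria. mRpS16 had 11.6 and 39.2, 55.5 pooled, and starts 97 bp from cg, which encodes the zinc-finger protein combgap. The replicates differed most at mRpS16, where the signal was mostly that of replicate 3.

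In all, 65 of the 73 genes had some candidate region of the pooled list within 1000 bp (89.0%, 79.8 to 94.3), against 72.5% of all genes, which is below that interval. The share over all head-to-head genes, the layout of most of the 73, was not computed. The candidate list holds background by design, so such a region is no call. Of the 57 genes without a thresholded peak, 49 had a candidate region, with a median best signal of 35.7 against 31.3 over all genes of that kind, and in 35 of the 49 it lay within 500 bp of an own TSS. That last count was not made over all genes. A pooled q of 0.01 or less was reached by 9 of the 57. With the genes above the threshold included, 25 of the 73 reached it (34.2%), against 25.5% of all genes. The 8 genes with no region at all were mRpL12, mRpL14, mRpL39, mRpL49, mRpS18A, mRpS18C, mRpS33 and mRpS34. The other 2 proteins of the small subunit considered go by other names. They are tko, known from the bang-sensitive mutant technical knockout, with a best region of 23.4 (rank 18029), and bonsai, with 32.9 (rank 8250). Neither had a thresholded peak.

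The peaks were spread over both subunits and over both kinds of protein. Among the large-subunit genes 12 of 47 had a peak (25.5%, 15.3 to 39.5), and among the small-subunit genes 4 of 26 (15.4%, 6.15 to 33.5). Names of bacterial-type proteins were taken as numbers up to 36 for the large and up to 21 for the small subunit, which is a rule of naming and not of sequence. No sequences were compared, so a gene with a bacterial counterpart can stand among those called mitochondria-specific. By the names, peaks lay at 7 of 28 bacterial-type and 5 of 19 mitochondria-specific genes of the large subunit. In the small subunit they lay at 3 of 14 bacterial-type genes, mRpS2, mRpS7 and mRpS10, and at 1 of 12 mitochondria-specific genes, mRpS23. Read through replicate 3 alone the order of the subunits turned, with 9 of 47 large-subunit genes (19.1%) and 6 of 26 small-subunit genes (23.1%), and replicate 2 alone gave 12 of 47 (25.5%) and 6 of 26 (23.1%). The intervals of all 4 classes overlap, so no class was set apart. By chromosome arm, 7 of 12 genes on 2L had a peak. The counts were 4 of 12 on 2R (16.9% of all genes there), 2 of 17 on 3L (17.3%) and 3 of 21 on 3R (16.8%). None of 11 on X had one (Wilson interval 0 to 25.9). A wider limit used here for a count of 0, 3 counts of 11, allows a share of up to 27.3%. Over all genes the share on X was 14.2%. On 2L the share was 58.3% (32.0 to 80.7) against 15.1% of all genes on that arm. A summit within 500 bp of an own TSS was at 5 of those 12, since the summits at mRpL13 and mRpL27 lay beyond the 3′ end. That narrower count was not made over all genes of 2L, and the 15.1% is not its background. That split by arm was singled out after its values were seen.

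Most of the peaks lay where a promoter is shared, with sharing taken as start sites within 500 bp. Of the 73 genes, 53 (72.6%) start head to head with another protein-coding gene within 500 bp, against 26.8% of all genes and 39.5% of the cytosolic ribosomal protein genes. The gaps ran from 20 to 499 bp with a median of 264 bp. In none of these pairs was the neighbour another mitochondrial ribosomal protein gene. A peak was present at 14 of the 53 (26.4%, 16.4 to 39.6), and over all 3737 head-to-head genes the share was also 26.4%. Where the promoter was not shared, 1 of 19 had a peak (5.26%, 0.935 to 24.6), mRpL41, against 11.6% of all such genes. The remaining gene, mRpL13, shares its start with a gene of the same strand. In both classes the share of all genes lay inside the interval of the mitochondrial ribosomal protein genes.

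The positions of the summits were counted for these genes only, so no share over all head-to-head genes stands beside them. Taking the best summit of each of the 16 genes, 10 lay between the start sites of a head-to-head pair. The nearest TSS was the gene's own in 5 cases, among them mRpL53, which tied with CG33155. It was that of the gene sharing the promoter in 9 and that of a different gene in 2, mRpS7 with da and mRpL27 with RpL27A. Within 500 bp of an own TSS were 13 of the 16, at a median of 134 bp, and 11 of these were upstream. Among the 54 head-to-head pairs, counting mRpL47 with both of its partners, 14 had a peak within 1000 bp of both genes. The distances largely fix this count, since a summit between start sites at most 500 bp apart is within 1000 bp of both genes. It therefore says nothing on whether the 2 genes are bound together. In 5 pairs only the neighbour had one, namely Tudor-SN beside mRpL17, FoxK beside mRpL2, if (inflated) beside mRpL22, norpA beside mRpL33 and hzg beside mRpS31. In 1 pair, mRpL27 with CG15435, only the mitochondrial ribosomal protein gene had one. In the remaining 34 neither did.

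**Figure D3:**
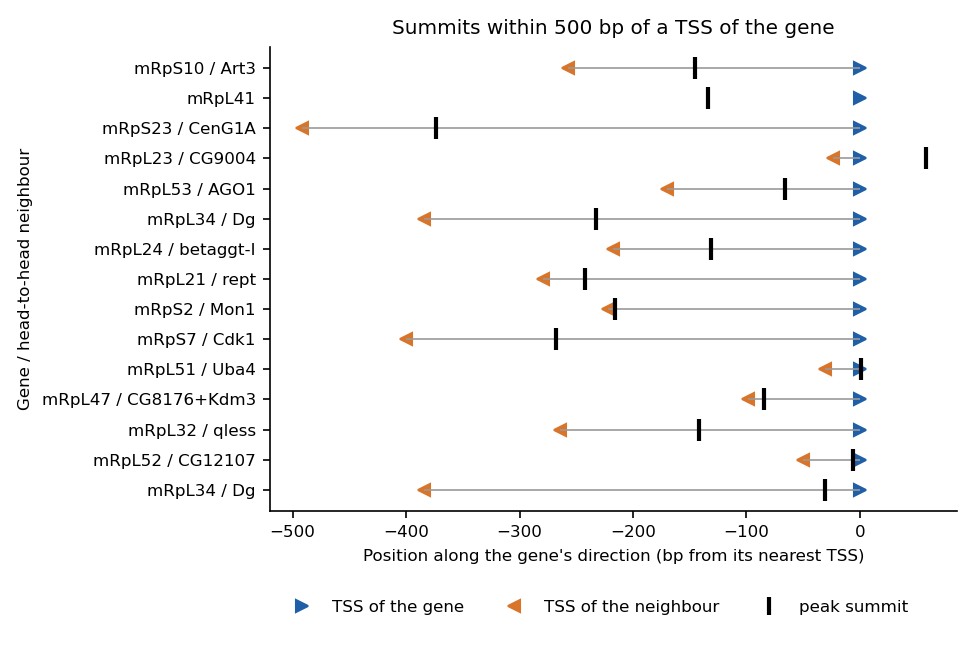
Thresholded summits (black bars) within 500 bp of a TSS of the gene, drawn along the direction of the gene from its nearest TSS (blue) with the TSS of the head-to-head neighbour (orange), in order of pooled signal from the top; distances are in bp. Most summits lie between the start sites, those at mRpS2, mRpL21 and mRpL47 next to the neighbour, while the summit at mRpL23 lies inside that gene and mRpL41 has no neighbour within 500 bp. At mRpL23, which has 3 TSSs, the summit is drawn from the nearest one but the neighbour at its gap from the outermost one.

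Lists of other mitochondrial genes had shares whose intervals overlap that of the mitochondrial ribosomal protein genes, so none was set apart from them. LeuRS-m, the mitochondrial leucyl-tRNA synthetase gene, with a signal of 112, was the only 1 of 15 mitochondrial tRNA synthetase genes with a peak. None of 8 mitochondrial translation factor genes had one (Wilson interval 0 to 32.4), and 3 counts of 8 allow a share of up to 37.5%. Of 14 genes for mitochondrial DNA maintenance and transcription 3 did, SLIRP2 (279.6), mtSSB, the single-stranded DNA binding protein of mitochondria (121), and PolG2, the accessory subunit of the mitochondrial DNA polymerase (88.7). Of 93 genes for subunits of the respiratory chain and ATP synthase 15 did (16.1%), led by the complex I genes ND-MWFE (186), ND-51 (120.1) and ND-ASHI (118). Of 22 protein import genes 3 did, Tom20 (91.7), Tom7 (90.8) and the chaperone gene Hsc70-5 (68.1).

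Genes of the cytosolic ribosome had peaks far more often. Of its 86 genes 54 had a peak (62.8%, 52.3 to 72.3), an interval that does not meet that of the mitochondrial genes. The difference was present within promoter layouts too, since 27 of 34 head-to-head and 26 of 51 unshared cytosolic genes had a peak, against 14 of 53 and 1 of 19 of the mitochondrial ones. The median signal of the best peak per gene was 114.6 in the cytosolic and 91.0 in the mitochondrial genes with a peak. The counts are of genes of 1 set of embryos and carry no test.

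**Figure D4:**
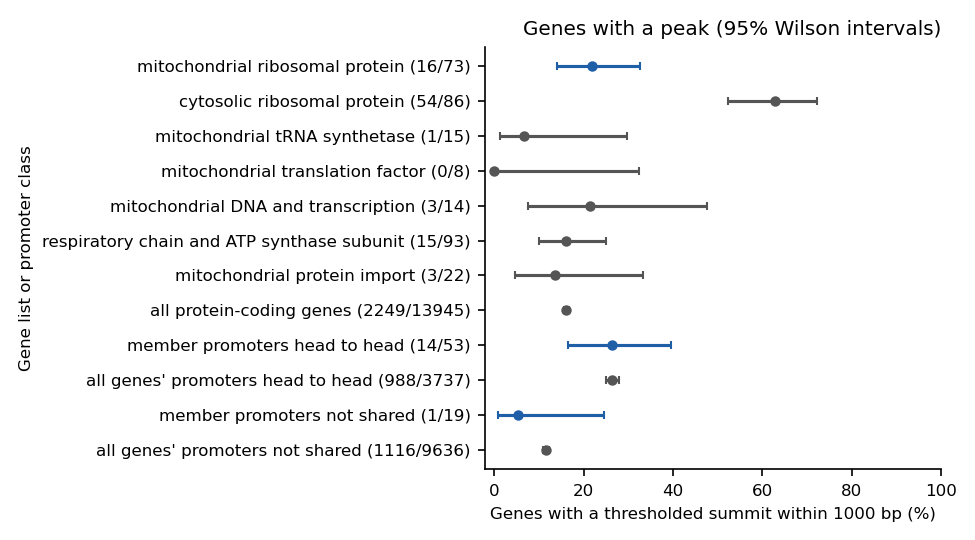
Share of genes with a thresholded summit within 1000 bp of the span, in percent, with 95% Wilson intervals, for the mitochondrial ribosomal protein genes (blue) and other gene lists, and for both by promoter layout; counts are in parentheses. The cytosolic ribosomal protein genes stand at 62.8%, above the 21.9% of the mitochondrial ones, whose head-to-head genes share the 26.4% of all head-to-head genes.

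Many of the promoters shared the E-box printed at the start. Of the elements searched, it was singled out after the values were seen, as were its positions described below. CAGCTG was present between 250 bp upstream and 50 bp downstream of the TSS in 40 of the 73 genes (54.8%, 43.4 to 65.7). In the same window it was present in 17.7% of all genes and 25.0% of all head-to-head genes. It did not follow layout among the mitochondrial ribosomal protein genes, being in 29 of 53 head-to-head promoters and 11 of the other 20. The cytosolic genes had it in 7 of 86 (8.14%, 4.0 to 15.9), below the share of all genes. Other mitochondrial lists ranged from 5 of 22 for protein import and 22 of 93 for the respiratory chain and ATP synthase to 7 of 15 for the tRNA synthetases and 4 of 8 for the translation factors. Both tko and bonsai had it.

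Most sites were close to the start of the gene. Of the 45 sites in the 40 promoters, 23 began in the first 50 bases of the gene, 13 in the 50 bases before it and 9 farther upstream. The 23 make 51.1% of the sites, against 22.3% of the 2776 sites in all promoters, of which 50.3% were farther upstream. Counted per gene, 30.1% of the mitochondrial ribosomal protein genes (20.8 to 41.4) had a site in the first 50 bases, against 4.33% of all genes. In the bin farthest upstream it was 6.85% (2.96 to 15.1) against 2.34% of all genes, which is also below that interval. In the printed examples the hexamer begins 28 bases before the start of mRpL23, 23 before that of mRpL21 and 18 past that of mRpL47.

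**Figure D5:**
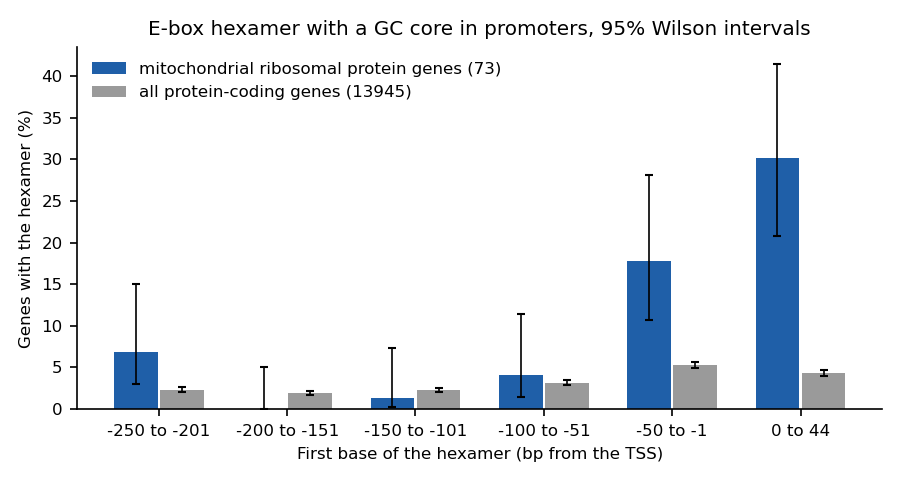
Share of genes (percent, bars, with 95% Wilson intervals) with CAGCTG beginning in each bin of distance from the TSS (bp), for the 73 mitochondrial ribosomal protein genes and for all 13945 protein-coding genes. In the last bin, inside the gene, the bars stand at 30.1% and 4.33%, in the bin farthest upstream at 6.85% and 2.34%, and in the bins between 200 and 51 bp upstream the intervals of both overlap.

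Most Daughterless summits did not lie on these E-boxes. Of the 45 sites, 2 were within 50 bp of a thresholded summit (4.44%), those at mRpS2 and mRpL52, against 2.99% of the sites in all promoters. Candidate summits of the pooled list lay within 50 bp of 7 of the 45 (15.6%), against 14.9% over all promoters. Within 200 bp of a thresholded summit were 10 of the 45 (22.2%), against 11.8% over all promoters, and within 200 bp of a candidate summit 51.1% against 44.3%. In the 11 genes with both a peak and a site, the nearest site was 26.5 to 1375 bp from the best summit, with a median of 106 bp. A peak was present at 11 of the 40 genes with CAGCTG (27.5%) and at 5 of the 33 without it (15.2%). Over all genes these shares were 20.2% and 15.3%. Among the head-to-head mitochondrial ribosomal protein genes they were 31.0% and 20.8%, against 30.2% and 25.2% of all head-to-head genes. Read from the peaks, CAGCTG was within 50 bp of 2 of the 18 summits (11.1%, 3.10 to 32.8), against 10.5% of all thresholded summits, and any CANNTG was within 50 bp of 8 (44.4%) against 42.6%. A match says only that the letters are there, and these shares are a description.

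Other promoter elements were less common. TATCGATA, the element of the factor DREF (DRE), was in 15 of the 73 promoters (20.5%), against 9.36% of all promoters and 17.5% of the head-to-head ones. It was in 2 of the 16 promoters of genes with a peak, and in none of the 18 windows around their summits. In the mRpL32 line printed above, the DRE lies just before CAGCTG. The E-box CACGTG was in 5 promoters (6.85%, against 4.2% of all), and the TATA element TATAAA in 34 (46.6%, against 45.8%). Both strands were searched for each.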

How the data were processed

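ChIP-seq of da-GFP embryos was deposited as region lists. Each region carries the authors' signal, with its summit, and a −log10 q value, both as deposited. Reads were pooled for 1 candidate list, a control entered the calling and a filter on irreproducible discovery rate (IDR) gave the thresholded list, per the file headers and names. The caller and the aligner are not named in the sources used here, nor is the IDR threshold. Read depth is unknown. The lists in build dm3 were not used. Genes and TSSs were those of Ensembl release 115 (BDGP6.54), and sequence came from the Release 6 assembly. Coordinates are 1-based dm6 positions.

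Summits were assigned by distance to spans (1000 bp) and TSSs (500 bp), and replicate regions were matched to a summit as the highest within 200 bp. Promoter windows ran from 250 bp before to 50 bp after the TSS and summit windows 50 bp to either side. Python 3.11.15, pandas 2.3.3, numpy 2.4.6 and matplotlib 3.10.9 were used, and the counting was tested on simulated data. Shares carry 95% Wilson intervals, and the design allows no test between groups. Nothing says how the embryo collections of the replicates differed, so their spread may be technical.

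That these genes and lists were taken up at all was decided with earlier results of these data known, although the rule for the members reads symbols only. The rule for named genes took the 15 members of highest signal and the 3 of lowest with a peak, those with 2 summits, the 5 highest without a peak, tko, bonsai and the neighbours at their promoters. The symbols mEFG2, LRPPRC2 and Pam16 had no entry under those names and were left out. Alternatives covered distances, list lengths, a q limit, each replicate alone, the gap between TSSs and window sizes.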

Additional observations from a re-analysis of the deposited data

How the results depend on the processing

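The number of mitochondrial ribosomal protein genes with a peak rests on the distance and list chosen. It was 16 as reported, 16 with 500 bp around the span (14.2% of all genes) and 22 with 2000 bp (19.6%). It fell to 2 for summits inside the span alone (6.53% of all genes), since most summits lie outside these genes, to 7 when a summit was given to its nearest TSS (11.5%) and to 8 with the 1000 highest peaks (9.07%). With all pooled regions of q of 0.01 or less it was 25 (25.5% of all genes). Reading single replicates gave 15 to 18. With the 1000 highest peaks or regions, 6 genes had a summit by their TSS (500 bp) and 7 had a peak in both replicates. With the regions of q of 0.01 or less in each replicate, 15 had a peak in both. For these counts no share over all genes was computed. A limit of 250 bp between TSSs left 26 genes at shared promoters, of which 9 had a peak, and 7 with a peak at unshared ones. With 1000 bp none with a peak was left at an unshared promoter (0). The split of peaks by sharing thus moved with the limit, and at these limits its share over all genes was not computed. Within 25 bp of a summit any E-box was at 5 and CAGCTG at 0, and within 100 bp CAGCTG was at 4, with no share over all summits computed. The best signals of named genes were read again at the other distances, and 14 genes had no peak left inside the span alone. Of the 34 signals left 32 were unchanged, as a value stays the same wherever the best summit in reach is the same. At 2000 bp mRpL47 had 85.5 and mRpL51 80.9. Over promoter windows chosen after seeing the data, CAGCTG was in 35 genes from 50 bp before to 50 bp after the TSS (47.9%, against 9.30% of all genes), in 45 from 500 bp before (61.6% against 26.0%) and in 41 over every annotated TSS (56.2% against 22.3%). No paired analysis was possible because there is 1 group. Depth is unknown, so a gene without a peak is not shown to lack binding.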

Other observations

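The strongest of these peaks lay on DNA of low GC content. The windows of 50 bp either side of the summits of mRpS10, mRpL41, mRpS23 and mRpL23 had 22.8% to 29.7% GC, while the median was 33.7% over the strongest 100 thresholded summits and 38.6% over all of them. The 18 windows ranged from 16.8% GC at mRpL24 to 57.4% at mRpL53. The promoters had a median of 34.7% GC against 38.0% over all genes, with 35.5% in those with a peak and 34.3% in those without. These values were singled out after they were seen, and the part of base composition in the signal was not tested.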
